A study of Rattus norvegicus with 20 samples.

Results

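Esophagus cells recovered from skin grafts were compared with cells of oral mucosa, vagina, footpad and trachea recovered in the same way. The series holds 20 arrays in 10 groups of 2, and the comparison set the 2 esophagus arrays after transplantation against the mean of the 4 other tissues after transplantation, which have 8 arrays. All donors were Sprague-Dawley rats at postnatal day 200 of the CZ-004 line, whose act-EGFP transgene keeps enhanced green fluorescent protein (EGFP) on in the cells, and every group, also before transplantation, carries it. Before transplantation, cells of each tissue had been freed with trypsin and grown on irradiated mouse 3T3-J2 fibroblasts, a feeder layer that keeps epithelial stem cells dividing. They were then placed in pockets in the skin of newborn OF1 mice, and the skin was grafted onto nude mice, which lack a thymus. The grafts were later dissected, and their cells were freed with trypsin and cultured again on feeders. Cells carrying EGFP were sorted and 100 ng of RNA per array was hybridized to the Affymetrix Rat Gene ST 1.0 array. The sort separated rat from mouse cells, but not epithelial cells from other rat cells. The 2 arrays of a group are parallel duplicate cultures, so the p-values below measure the spread between duplicates and not that between animals, grafts or tissues.

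The esophagus of rodents is lined by a stratified squamous epithelium. Its basal layer holds the dividing cells, and cells that leave this layer switch on the keratins Krt4 and Krt13 and the small proline-rich protein Sprr3, which is built into the protein shell of mucosal cells. Transplanted into newborn skin, such cells meet dermal signals that normally direct the formation of hair follicles and epidermis.

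Values are log2 levels from RMA (robust multi-array average, which corrects background, brings all arrays to the same distribution and summarizes the probes of a set), and 1 unit is a factor of 2. The table holds 29215 probe sets, of which 15310 have a single gene symbol. One probe set per symbol, that with the highest mean over the 20 arrays, gave 14506 symbols. Called higher or lower below means a fold above 2 together with a Benjamini-Hochberg adjusted p below 0.05 from limma. Levels are comparable between arrays but not between genes, and the file holds no detection call. The duplicates of each group correlated at 0.991 to 0.996 (Pearson r over all probe sets), 0.996 for esophagus after transplantation, and the array medians lay between 5.31 and 5.55.

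The label was set against mucosal genes and against markers of other cells. Sprr3, which was given as a marker of these cells from this same comparison and so does not test the label, stood at 8.80 and 8.94 in the 2 esophagus arrays after transplantation, against a lowest value of 4.79, a median of 6.01 and a highest of 6.50 in the 8 other arrays. The difference was 3.05 ± 0.11 (SE), with a limma adjusted p of 2.22e-09. Tp63, the transcription factor of stratified epithelia, measured 9.85 in both esophagus arrays and 9.13 to 10.05 in the others, and Krt14, a keratin of basal cells, 13.19 and 13.24 against 13.08 to 13.36. Of 12 basal layer genes, Krt15 was called lower (-2.03) and none higher, and the list's median was -0.01. Other mucosal genes did not single out esophagus, since trachea had higher means for Krt13 (10.86), Krt4 (9.08) and Mal (8.06). Of 13 fibroblast markers, 2 were called lower in esophagus, Vim at -1.94 and Sparc at -1.20, and none higher. Of all symbols, 1.07% were called lower. The median of the 13 was -0.15, and 4 differences were above 0. Against vagina alone 1 of the 13 was called higher and 1 lower. Against oral mucosa 3 were called lower, against footpad 2 and against trachea 2, with none higher. Of all symbols, 2.03%, 4.18%, 1.99% and 0.338% were called lower than in oral mucosa, footpad, trachea and vagina, and 0.641% higher than in vagina. The summed linear signal of the 13 was 2844 to 2867 in esophagus and 3410 to 7299 over the 8 other arrays. Lum, which encodes a collagen-binding proteoglycan, measured 2.35 and 2.73 in esophagus and 2.27 to 2.69 elsewhere, and Col1a1 measured 6.75 and 6.80 against 6.66 to 7.22. Before transplantation, 7 of the 13 were called lower in esophagus, with a summed signal of 3371 to 3455 against 4212 to 7827. At that stage 0.875% of all symbols were called lower. In sorted cultures, fewer cells of a type and less RNA per cell cannot be told apart. In the contrast with the mean of 4 tissues, limma called none of the markers of smooth muscle (6 measured), endothelium (6), blood-derived cells (7), melanocytes (4) or Schwann cells (3). Of these, 2 smooth muscle, 2 blood-derived and 1 melanocyte marker had an unadjusted p under 0.05. Against single tissues, 1 smooth muscle marker was called lower than in oral mucosa and 1 than in trachea. Also called lower were 2 blood-derived markers against trachea and 1 melanocyte marker against footpad, and none was called higher. Ptprc, which marks blood-derived cells, lay at 3.37 and 3.49 in esophagus and 3.21 to 3.63 in the others, and Pecam1 of endothelium at 4.21 and 4.57 against 4.34 to 4.73. Krt20 was the 1 member called, and called higher (1.57), of 5 Merkel and neuroendocrine markers, and is also a keratin of simple epithelia.

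After transplantation, 101 of 14506 symbols (0.696%) were called higher in esophagus than in the mean of the 4 other tissues and 155 (1.07%) lower. Both esophagus arrays lay above all 8 other arrays for 734 symbols (5.06%) and below all of them for 937 (6.46%). Both conditions held for 64 symbols on the high side (0.441%) and 87 on the low side (0.6%). The median difference over all symbols was -0.02, and the middle 90% of symbols lay between -0.49 and 0.50. Against single tissues, 93 symbols were called higher (0.641%) and 49 lower (0.338%) than in vagina. Trachea gave 241 (1.66%) and 289 (1.99%), oral mucosa 275 (1.9%) and 294 (2.03%), and footpad 570 (3.93%) and 607 (4.18%). Recovered esophagus cells thus had the fewest calls against recovered vagina cells and the most against recovered footpad cells. Among the 4 other tissues, vagina had the highest mean for 43 of the 101 symbols called higher, and trachea for 37. Vagina had the lowest mean of the 4 for 100 of the 155 symbols called lower, and trachea for 31. These 4 contrasts share the esophagus arrays and are given side by side. The shares over all symbols stand as background to the counts of list members below. When each array was centred on its median, which moved the contrast with oral mucosa by 0.12, that contrast gave 411 higher and 206 lower, so that the share of higher calls went from 48.3% to 66.6%. With the spread between the tissues as error instead of that between duplicates, limma called 0 symbols in either direction, and 202 (1.39%) had an unadjusted p under 0.05. The array titles also carry Roman numerals and codes that differ between tissues and that the labels do not explain, and arrays that share the numeral or the code with esophagus gave 300 higher and 358 lower (numeral III, oral mucosa and footpad) and 263 and 351 (code RC4, footpad and trachea). Leaving footpad out gave 67 higher and 106 lower, and leaving vagina out 198 and 261.

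Among the symbols called in the mean contrast, 10 (0.0689%) were also called higher than each of the 4 tissues taken singly and 14 (0.0965%) lower. The 10 were Snurf, Heph, Sprr3, Fcer2, Has3, Gdpd2, Pdgfc, Exo5, Tgm3 and Emb, the last of which was added after its values were seen. Emb encodes embigin, a chaperone of monocarboxylate transporters, and measured 9.26 and 9.30 in esophagus against 7.45 to 8.24.

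**Figure D1:**
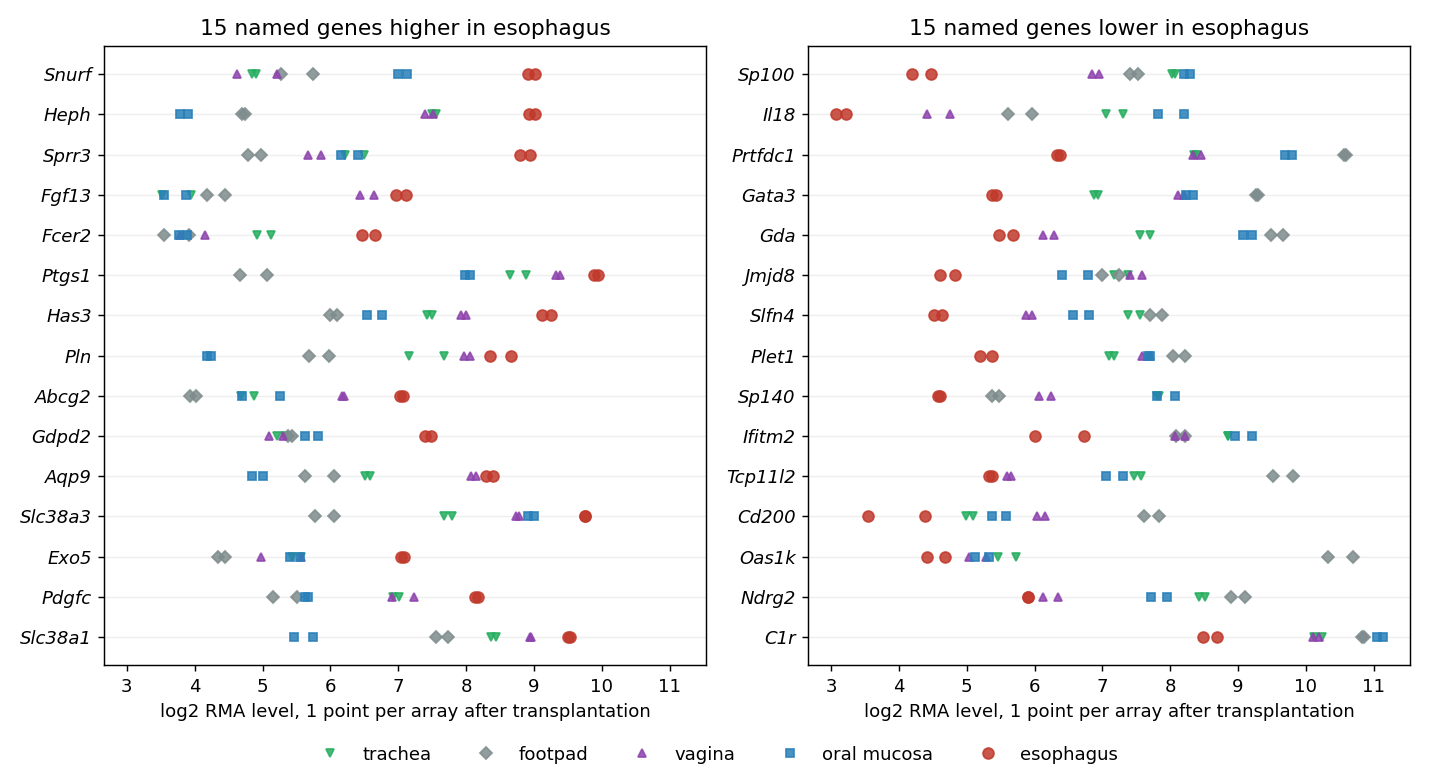
Log2 RMA levels after transplantation (x axis) of the 15 genes with the largest positive and the 15 with the largest negative difference among called genes whose esophagus arrays lay outside the range of the 8 others, 1 point per array. By this rule the 2 esophagus points (red circles) stand right of all others in the left panel and left of all others in the right panel. Vagina (purple triangles) comes near esophagus for Aqp9 and Ndrg2, and footpad (grey diamonds) lies far off for Ptgs1 and Oas1k.

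Barrier proteins of mucosal cells held some of the clearest differences. Tgm3, a transglutaminase that crosslinks the cornified shell, measured 5.81 in both esophagus arrays, against a lowest value of 3.78, a median of 4.0 and a highest of 4.26 in the others, a difference of 1.81 ± 0.12 (SE). The groups were far apart, although the levels of the other tissues were near the low end of the table. Krt13 was called higher (10.12 and 10.24 against a median of 9.18, difference 1.33 ± 0.13), as was Mal, a lipid raft protein of esophageal epithelium (6.85 and 7.0 against 5.22, difference 1.11 ± 0.16). For Krt13 and Mal the groups overlapped, because trachea had higher means than esophagus, 10.86 for Krt13 and 8.06 for Mal. Krt4, the partner of Krt13, measured 6.63 and 7.18 in esophagus, 9.08 on average in trachea and 4.76 to 5.33 in the means of the other tissues, and its difference of 0.92 did not pass the fold threshold. Scel, which encodes sciellin of the cornified envelope, was called lower (-1.04). In the whole list of mucosal differentiation, 4 of 16 measured members were called higher and 1 lower, and the median difference was 0.11. Of all symbols, 0.696% were called higher and 1.07% lower. Sprr3, 1 of the 4, was given as a marker from this same comparison, so its call is no test of the list. The higher calls in the list were 2 without vagina, when the median was 0.05, and 6 without trachea, and the median without footpad was 0.24. Scel lost its call without footpad, without trachea, without esophagus replicate 1 and with arrays centred on their median. Of 16 small proline-rich and cornified envelope genes, 2 were called higher, the given marker Sprr3 and S100a8 (1.24), and 2 lower. The 2 lower ones were Krt1 (-1.24) and Krt10 (-1.04), the keratins of the upper epidermis, which measured 8.73 and 7.88 in footpad and at most 6.0 in the means of the other tissues, and without footpad neither was called.

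Iron-handling genes gave a small group of calls in 1 direction. Heph encodes hephaestin, a copper-dependent ferroxidase that works with the iron exporter ferroportin. It measured 9.01 and 8.93 in esophagus, and 3.78, 6.07 and 7.56 as the lowest, median and highest of the 8 others, a difference of 3.09 ± 0.11 (SE) with a limma adjusted p of 1.77e-09. The 4 other tissues formed a high pair, trachea (7.53) and vagina (7.46), and a low pair, footpad (4.72) and oral mucosa (3.84), all below esophagus. Tfrc, the transferrin receptor that brings iron into the cell, measured 10.76 and 10.69 (1.40 ± 0.12), and vagina lay above it, up to 11.04. Hmox1, which frees iron from heme, measured 8.41 and 8.52 against at most 8.09 (1.26 ± 0.09), and Steap1, a metalloreductase family member, 9.14 and 9.23 against at most 8.81 (1.14 ± 0.11). These were the 4 members (10%) called higher of 40 measured in the list of iron and copper handling, against 0.696% of all symbols. None was called lower, and the list's median was 0.01. Heph, 1 of the 4, was given as a marker of these cells from this same comparison. Its p-value and its place in this count are therefore descriptions and no test. Slc40a1, which encodes ferroportin, measured 4.43 and 4.75 against a median of 4.77, and the ferritin gene Fth1 12.32 and 12.29 against 12.50. Leaving footpad out of the comparison left 1 of the 4 called.

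Of 38 measured carriers in the cell membrane, 5 (13.2%) were called higher, against 0.696% of all symbols, and none lower. Their median was 0.24. Without footpad 3 were called. Abcg2, an efflux pump for drugs and urate, measured 7.02 and 7.07 in esophagus against 3.93, 4.79 and 6.20 (lowest, median, highest) in the others. Aqp9, a channel for water and glycerol, measured 8.29 and 8.40 against 4.85, 6.28 and 8.15. Slc38a1, a sodium-coupled carrier of glutamine, measured 9.54 and 9.50 against 5.47, 8.05 and 8.96. The differences were 2.07 ± 0.15, 1.99 ± 0.14 and 1.87 ± 0.09 (SE). The rule that named these 3 genes requires both esophagus arrays to lie above all the others, so the lack of overlap follows from it. None of the 3 was called against vagina alone, where the differences were 0.86, 0.24 and 0.56. Slc16a3, which exports lactate, was called as well (1.73 ± 0.14) and lay at 5.67 in footpad against 9.91 to 10.70 in the means of the other 3 tissues, and the fifth was Slc7a11, the cystine importer (1.09 ± 0.17). Outside this list, Slc38a3, another glutamine carrier, measured 9.76 in both esophagus arrays against 5.77, 8.26 and 9.0, a difference of 1.92 ± 0.09.

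Signaling and matrix genes were among the 15 highest. Fgf13, a fibroblast growth factor homolog that stays inside the cell, measured 7.11 and 6.96 in esophagus against 3.51, 4.07 and 6.65 (lowest, median, highest) in the others, a difference of 2.46 ± 0.16 (SE). Vagina lay close to esophagus at 6.54 and the 3 other tissues at or under 4.31. Pdgfc, a secreted platelet-derived growth factor, measured 8.13 and 8.17 against 5.15, 6.29 and 7.23, and was called against all 4 tissues. These 2 were the members called of 50 growth factors and receptor kinases, whose differences were split evenly, 25 above and 25 below 0. That is 4% of the list, against 0.696% of all symbols called higher. Has3, which makes hyaluronan chains at the cell surface, measured 9.12 and 9.25 against 5.99, 7.10 and 8.0. Ptgs1, the constitutive cyclooxygenase of prostaglandin synthesis, measured 9.95 and 9.89 against 4.67, 8.36 and 9.38, and was the 1 called member of 26 in the prostaglandin list. Its difference of 2.17 ± 0.09 held a difference of 5.06 from footpad and of 0.56 from vagina.

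The remaining genes of the 15 highest belong to no list but that of imprinted genes. Snurf measured 8.92 and 9.02 in esophagus, 7.06 on average in oral mucosa and 4.87 to 5.51 in the means of the 3 other tissues, a difference of 3.38 ± 0.15 (SE), the largest of the named genes. Snurf lies upstream of Snrpn on a shared, paternally expressed transcript, so the 2 signals need not be independent. The Snrpn probe set measured 7.07 and 7.11 against 6.32 to 6.55, a difference of 0.66 that did not pass the fold threshold. Fcer2, the low-affinity receptor for immunoglobulin E, measured 6.46 and 6.66 against 3.54, 3.90 and 5.13. Gdpd2, a glycerophosphodiester phosphodiesterase, measured 7.40 and 7.48 against 5.09, 5.35 and 5.81, and its 4 differences from single tissues were alike, 1.73 to 2.25. Pln, which encodes phospholamban, an inhibitor of the calcium pump of the endoplasmic reticulum, measured 8.36 and 8.66 against 4.18, 6.57 and 8.06. Exo5, a single-strand exonuclease, measured 7.09 and 7.04 against 4.35, 5.43 and 5.57. In Gdpd2 the 4 other tissues lay close together, whereas in Pln they ranged from 4.21 in oral mucosa to 8.02 in vagina.

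**Figure D2:**
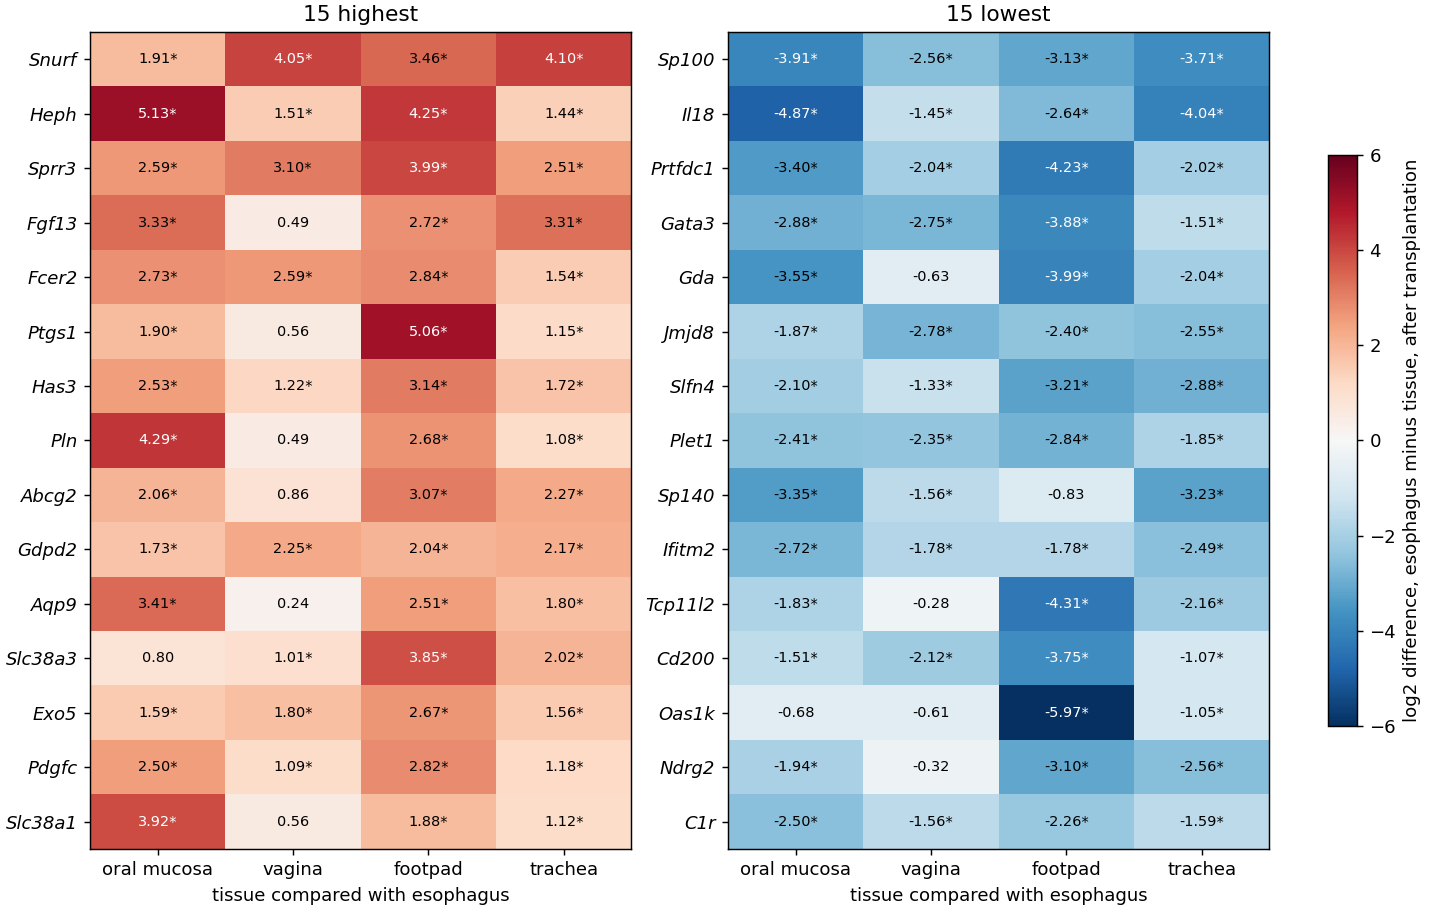
Log2 differences after transplantation, esophagus minus each of the 4 other tissues (columns), for the 15 highest and the 15 lowest named genes (rows), with an asterisk on those called. All values of the left panel are positive and all of the right panel negative, as the rule for these genes requires. The columns for vagina have the fewest asterisks, and Oas1k has -5.97 against footpad and -0.61 to -1.05 against the others.

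Of the 15 highest, 8 were called against all 4 tissues, and of the 15 lowest 10. The lowest genes included several of nuclear bodies and of antiviral defense. Sp100, a scaffold of the nuclear bodies that form around the protein PML, measured 4.20 and 4.48 in esophagus against 6.85, 7.77 and 8.29 (lowest, median, highest) in the others, a difference of -3.33 ± 0.15 (SE) with a limma adjusted p of 7.65e-09. Its relative Sp140 measured 4.60 and 4.58 against 5.37, 7.02 and 8.07. Slfn4, a schlafen family gene, measured 4.52 and 4.64 against 5.87, 7.09 and 7.88. Ifitm2, which encodes a membrane protein that hinders the entry of viruses, measured 6.0 and 6.73 against 8.07, 8.53 and 9.21. The difference between the 2 esophagus arrays was larger for Ifitm2 than for the 3 genes before it, and still small against the gap to the other tissues. Oas1k, of the family that senses double-stranded RNA, measured 4.68 and 4.41 against 5.03, 5.39 and 10.70, where the high values are those of footpad. Without footpad, its difference of -2.08 went to -0.78 and was not called. Ifitm2, Slfn4 and Oas1k have close relatives in the genome, and a probe set can also take up signal from them.

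The list of interferon response genes had 0 of 27 measured members called higher and 6 called lower. The 6 were 22.2% of the list, against 1.07% of all symbols. In all, 23 of 27 differences were under 0 and the median was -0.62, against -0.02 over all symbols. Against single tissues 9 were called lower than in oral mucosa, 9 than in footpad and 8 than in trachea, but limma called 0 lower than in vagina, where the median was -0.1 and 9 were lower and 2 higher at an unadjusted p under 0.05. Of all symbols, 2.03%, 4.18%, 1.99% and 0.338% were called lower than in oral mucosa, footpad, trachea and vagina. After Oas1k, the members with the largest differences were Bst2, Gbp2 and Psmb8. Bst2, which encodes tetherin, holding viruses at the cell surface, measured 5.13 and 5.14 against 6.12, 6.66 and 7.93 (-1.67 ± 0.08, SE). Gbp2, a guanylate-binding GTPase, measured 4.28 and 4.42 against 4.65, 6.13 and 6.76 (-1.54 ± 0.12). The immunoproteasome subunit Psmb8 measured 5.59 and 6.17 against 6.10, 7.47 and 8.09 (-1.43 ± 0.12). The other 2, described after their values were seen, were Psmb9 (-1.34), also of the immunoproteasome, and Ifi27 (-1.26), an interferon-induced membrane protein. Esophagus lay below all 8 other arrays in Bst2, Gbp2, Psmb9 and Ifi27, and overlapped with vagina in Psmb8. The regulators of the pathway Irf1 (-0.95) and Irf9 (-0.94) did not pass the fold threshold, and several well-known targets barely differed, such as Isg15 (0.04) and Mx1 (0.01), of which Mx1 lay at 3.36 to 3.63 in the 8 other arrays, near the bottom of the table. With vagina left out of the comparison 9 members were called lower, and with any other tissue left out 6 or 7.

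For 4 of the genes called lower, the 250 bases before the transcription start are given, since they hold the motif GAAA, any 2 bases, GAAA, the core of the element that interferon-activated factors bind. Capitals mark this motif on either strand, so that a match on the reverse strand reads TTTC, 2 bases, TTTC. Sequences are RefSeq's for the rat assembly GRCr8, written in the direction of transcription.

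Bst2 (chr16:18254968-18255217, minus strand): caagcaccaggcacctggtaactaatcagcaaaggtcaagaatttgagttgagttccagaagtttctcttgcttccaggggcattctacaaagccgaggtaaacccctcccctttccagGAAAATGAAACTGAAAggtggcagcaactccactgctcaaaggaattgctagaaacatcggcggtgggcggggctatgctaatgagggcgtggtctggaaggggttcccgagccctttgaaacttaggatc
Gbp2 (chr2:234005477-234005726, plus strand): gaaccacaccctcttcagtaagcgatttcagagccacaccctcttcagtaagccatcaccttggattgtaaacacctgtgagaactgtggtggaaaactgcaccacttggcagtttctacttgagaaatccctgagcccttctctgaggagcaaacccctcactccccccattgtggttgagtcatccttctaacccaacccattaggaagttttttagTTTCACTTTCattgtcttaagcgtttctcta
Ifi27 (chr6:128355062-128355311, plus strand): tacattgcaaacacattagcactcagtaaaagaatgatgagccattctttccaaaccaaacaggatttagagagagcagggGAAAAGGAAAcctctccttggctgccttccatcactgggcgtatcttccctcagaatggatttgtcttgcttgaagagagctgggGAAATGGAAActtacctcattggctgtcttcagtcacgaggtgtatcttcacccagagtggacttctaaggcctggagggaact
Ifitm2 (chr1:205482349-205482598, minus strand): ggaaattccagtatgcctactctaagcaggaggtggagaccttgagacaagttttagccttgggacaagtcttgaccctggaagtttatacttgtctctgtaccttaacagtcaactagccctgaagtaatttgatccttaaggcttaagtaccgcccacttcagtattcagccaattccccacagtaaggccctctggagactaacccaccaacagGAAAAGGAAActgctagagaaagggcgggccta

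In Bst2, 2 matches of 10 bases overlap, starting 131 and 125 bases before the start site. Gbp2 has 1 match that begins 31 bases before the start, Ifitm2 has 1 at 33 bases, and Ifi27 has 2, at 169 and 84 bases. The motif was found in 3.41% of 33469 promoters of this length. Among the interferon list it was in 3 of the 5 called genes with a promoter sequence and in 10 of 15 that were not called, so the motif was about as frequent in members that differed as in those that did not. A match is a description of letters and does not show that a factor binds there.

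Cytokine genes went in both directions. Il18, an interleukin 1 family cytokine that epithelial cells store as a precursor, measured 3.22 and 3.07 in esophagus against 4.42, 6.51 and 8.21 (lowest, median, highest), a difference of -3.25 ± 0.16 (SE). Vagina was nearest at 4.59 and oral mucosa farthest at 8.02. Since 3.22 and 3.07 lie at the low end of the table, where 40% of probe sets have means under 4.77, the array sets a floor to this difference. In the list of chemokines and interleukins, 6 of 39 members were called lower and 2 higher, and the median was -0.06. Il1r2, the decoy receptor of interleukin 1, differed by -1.83, and its mean was 10.32 in footpad against 4.24 to 5.42 in the other 3 tissues. Il10 differed by -1.53. The 2 called higher were the chemokine receptor Cxcr2 (1.47) and Cxcl2 (1.00), and neither was called without footpad. C1r, a protease that starts the classical complement cascade, measured 8.49 and 8.69 against 10.10, 10.54 and 11.14. Cd200, a surface glycoprotein that restrains myeloid cells, measured 4.39 and 3.55 against 4.99, 5.80 and 7.84. Both were called against all 4 tissues.

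Gata3, a transcription factor of the hair follicle and epidermis, measured 5.43 and 5.38 in esophagus against 6.88, 8.22 and 9.29 (lowest, median, highest), a difference of -2.75 ± 0.10 (SE). It was the 1 member called of 10 hair follicle transcription factors, whose median was -0.35, or -0.15 without footpad. Without trachea 3 were called lower. Against single tissues 5 were lower than in footpad, 3 than in oral mucosa, 2 than in vagina and 1 than in trachea. Over all symbols these shares were 4.18%, 2.03%, 0.338% and 1.99%, and 1.07% against the mean of the 4. Plet1, a surface protein that marks the upper hair follicle, measured 5.38 and 5.19 against 7.10, 7.69 and 8.22 (-2.36 ± 0.14). Both genes were lower than in each of the 4 tissues, trachea included. Among 21 foregut and mucosal transcription factors, 2 were called higher, Pax9 (8.46 and 8.58, 1.33 ± 0.11), which acts in the pharynx and esophagus, and Isl1 (6.96 and 6.98, 1.17 ± 0.10). Trachea was level with esophagus in Pax9, with a mean of 8.49, and in Sox2, the foregut regulator, with 8.39 against 8.23 and 8.19 in esophagus. Of 23 homeobox genes limma called 0, and 10 had an unadjusted p under 0.05. Hoxc4, chosen after its values were seen, measured 6.86 and 6.44 in esophagus before transplantation, above all others (4.02 to 4.77), and 4.88 and 5.46 after it, a difference of 0.95. Nkx2-1, the factor of airway and thyroid, measured 6.13 and 6.15 against 5.89 to 6.77.

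A pair of genes related to purine metabolism were far lower. Prtfdc1, a relative of the purine salvage enzyme Hprt1, measured 6.38 and 6.33 in esophagus against 8.34, 9.08 and 10.59 (lowest, median, highest), a difference of -2.92 ± 0.11 (SE). Gda, guanine deaminase, measured 5.48 and 5.69 against 6.13, 8.38 and 9.67 (-2.55 ± 0.11), with vagina next to esophagus at 6.21. Jmjd8, a JmjC domain protein, measured 4.83 and 4.61 against 6.40, 7.20 and 7.59, with little spread among the other 4 tissues. Ndrg2, of the N-myc downstream-regulated family, measured 5.91 and 5.90 against 6.12, 8.19 and 9.11, and Tcp11l2 5.37 and 5.33 against 5.60, 7.38 and 9.81. For Ndrg2 and Tcp11l2 the nearest tissue was vagina, against which neither was called.

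Immediate early genes are switched on within minutes by growth signals and by the handling of cells. None of 25 measured members was called higher, 8 were called lower, 23 differences were under 0, and the median was -0.59. The share called lower was 32%, against 1.07% of all symbols. Against single tissues 16 were called lower than in footpad, 9 than in oral mucosa and 7 than in trachea. Limma called 0 lower than in vagina, where the median was -0.19 and 13 were lower and 0 higher at an unadjusted p under 0.05. Of all symbols, 4.18%, 2.03%, 1.99% and 0.338% were called lower than in footpad, oral mucosa, trachea and vagina. Fos, a subunit of the AP-1 factor, measured 6.58 and 6.78 in esophagus against 7.18, 8.85 and 9.94 (-1.96 ± 0.12, SE). Dusp1, a phosphatase that switches off MAP kinases, measured 9.31 and 9.43 against 10.04, 11.61 and 11.90 (-1.94 ± 0.08). Atf3 differed by -1.69 and Nr4a1 by -1.52. Esophagus lay below all other arrays in Fos, Dusp1 and Atf3, and between vagina and the rest in Nr4a1. The duplicates of each group were cultured in parallel, and the part of handling in these values was not tested. The count went from 8 to 5 without footpad and to 11 without vagina.

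Among cell cycle genes the calls went the other way. Of 30 measured members 3 (10%) were called higher, against 0.696% of all symbols, and none lower. In this list 29 of 30 differences were above 0 and the median was 0.55. Cdc6, which loads the replicative helicase, measured 9.07 and 9.06 in esophagus, 9.04 on average in vagina, 7.91 in oral mucosa, 6.71 in trachea and 6.38 in footpad. Ccne2, a cyclin of S phase entry, measured 8.61 and 8.63 against 5.93, 7.31 and 8.33, and the thymidylate synthase gene Tyms 7.92 and 8.06 against 5.61, 7.05 and 7.92. Esophagus and vagina were thus alike in Cdc6. Against trachea alone 22 members were called higher, against footpad 11, against oral mucosa 2 and against vagina 0 by limma, where the median was -0.08 and 2 members were lower and 0 higher at an unadjusted p under 0.05. Of all symbols, 1.66%, 3.93%, 1.9% and 0.641% were called higher than in trachea, footpad, oral mucosa and vagina. Without vagina in the comparison 9 members were called, and without footpad 2. Without trachea 4 were called and the median was 0.33.

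**Figure D3:**
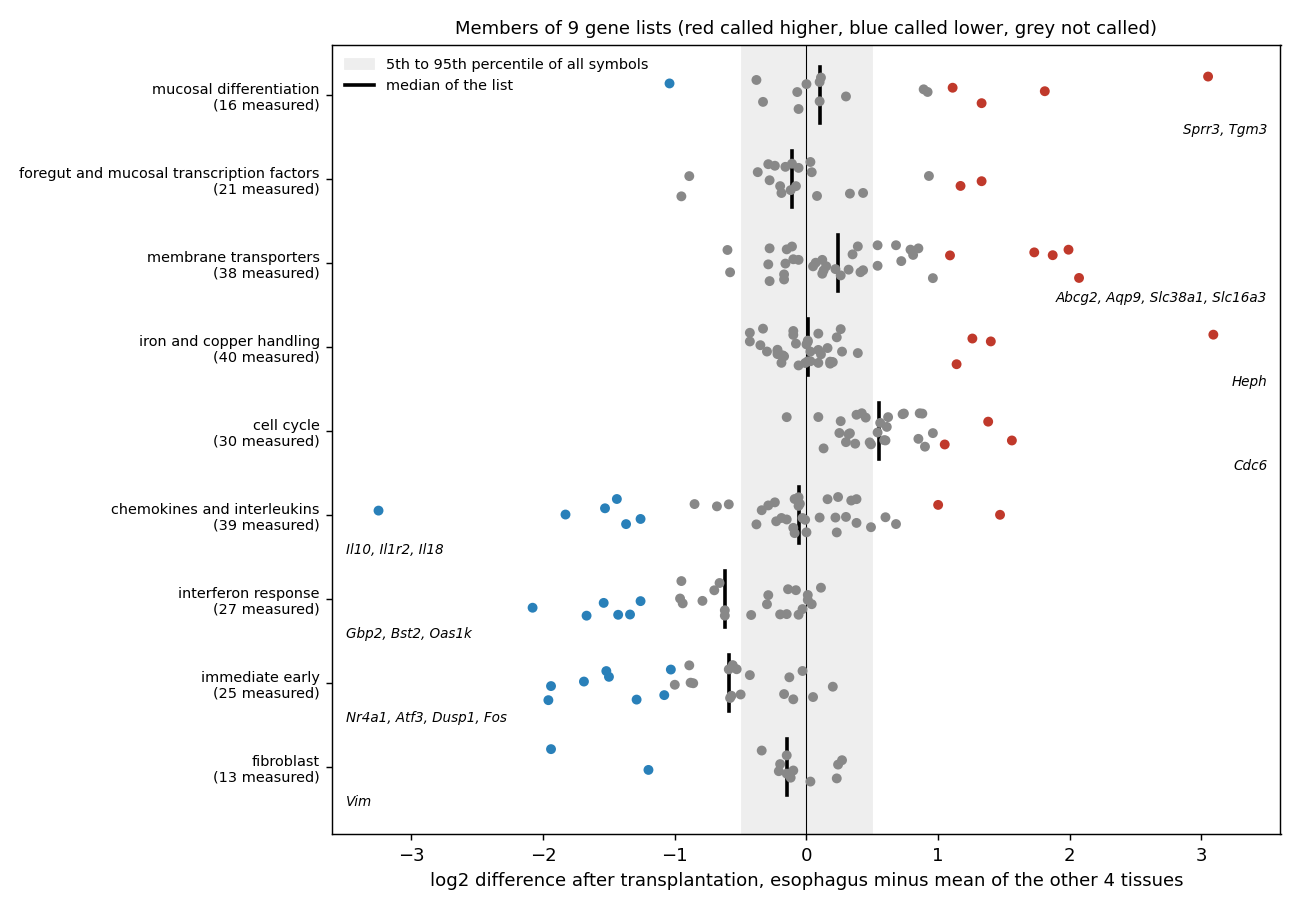
Log2 differences after transplantation (x axis, esophagus minus the mean of the other 4 tissues) of the measured members of 9 gene lists, 1 point per gene, with the list median as a black bar and called members with a difference over 1.5 in size named in the row's lower corners. The points of interferon response and immediate early genes lie mostly left of 0, with medians of -0.62 and -0.59, and those of the cell cycle mostly right of it, with a median of 0.55. The grey band holds the middle 90% of all symbols.

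The same contrast in cultures before transplantation used other arrays and had 59 symbols called higher (0.407%) and 127 lower (0.875%). Of the 101 symbols higher after transplantation, 18 had also been called higher before (17.8% of those after and 30.5% of those before), and of the 155 lower ones 35 had been called lower (22.6% and 27.6%). The 18 included Sprr3 (2.74 before and 3.05 after), Abcg2 (2.10 and 2.07), Pln (1.94 and 2.14), Aqp9 (1.77 and 1.99), Fgf13 (1.60 and 2.46), Tgm3 (1.51 and 1.81), Has3 (1.36 and 2.15), Krt13 (2.23 and 1.33) and Pax9 (1.03 and 1.33). Before transplantation Sprr3 measured 9.82 and 9.93 in esophagus and up to 10.68 in the others, so the groups overlapped then and no longer did afterwards. In oral mucosa Sprr3 fell by 4.36 with transplantation, and in esophagus by 1.01. The 35 lower at both stages included Sp100 (-1.76 before), Il18 (-2.17), Prtfdc1 (-1.26), Slfn4 (-1.54), Plet1 (-2.11), Ifitm2 (-1.50), Cd200 (-2.89) and C1r (-1.75). Also in this group, Il1rl1 being chosen after its values were seen, were Mmp3, the stromelysin that cuts matrix proteins (-3.43 before, -1.93 after), and Il1rl1, the receptor of interleukin 33 (-3.06 and -1.26).

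**Figure D4:**
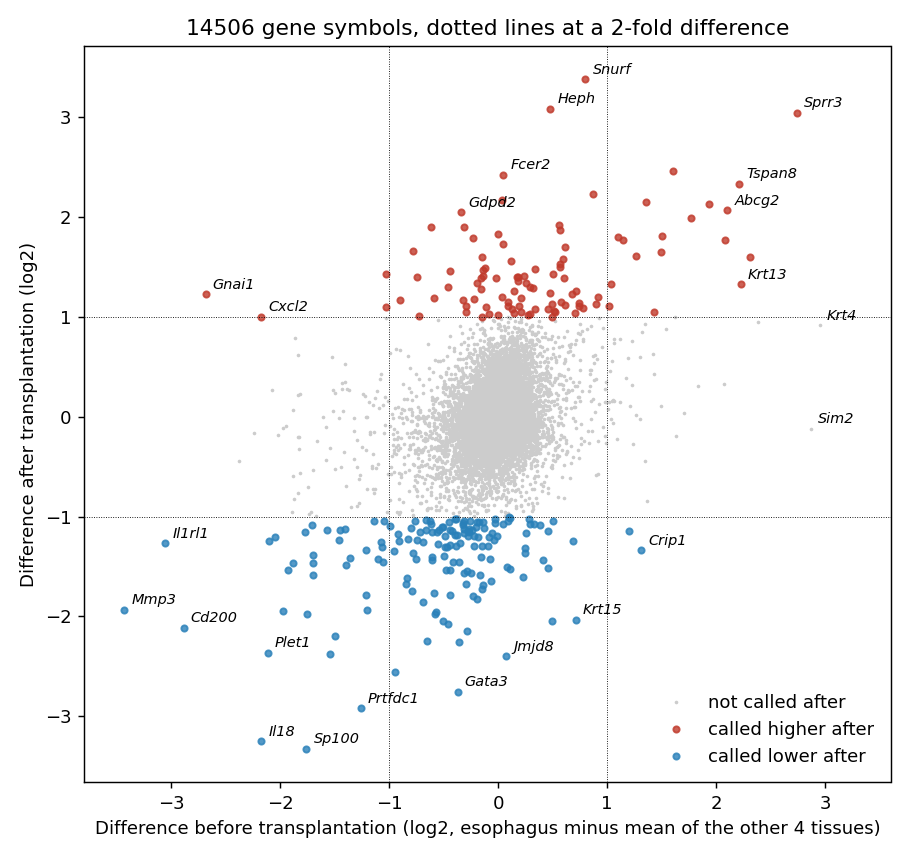
Each point is 1 of 14506 symbols, with the log2 difference between esophagus and the mean of the other 4 tissues before transplantation on the x axis and after it on the y axis, coloured where called after. Sprr3 and Abcg2 lie at the upper right, Il18 and Cd200 at the lower left, Heph and Snurf high near the vertical midline, Gata3 and Jmjd8 low near it, and Krt4 and Sim2 far right and uncalled after.

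Whether esophagus cells changed differently from the others was tested by the interaction, the change from before to after in esophagus minus the mean change in the other 4 tissues. It was called higher for 155 symbols (1.07%) and lower for 132 (0.91%), or 43 without footpad. The difference after transplantation is a part of this value, so calls in both are not independent. Of the 101 symbols higher after transplantation 53 had a positive call here. For the change within esophagus alone, 25 of all 101 were called as rising and 3 as falling. Of the 155 lower symbols 64 had a negative call, and within esophagus 36 of all 155 were called as falling and 3 as rising. Heph had a positive call and itself rose. It measured 5.83 and 5.26 in esophagus before transplantation and rose by 3.42, by 2.32 in vagina and by 2.13 in trachea, with changes of -0.37 in oral mucosa and -0.82 in footpad, an interaction of 2.61 ± 0.16 (SE). Ptgs1 changed by 0.08 in esophagus and fell by 5.06 in footpad, and Snurf changed by 0.49 in esophagus and fell by 4.15 in trachea, 2.25 in oral mucosa and 2.17 in footpad. Neither change in esophagus was called.

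Among the called interactions, the 4 largest positive ones were those of Gnai1, Cxcl2, Vcan and Heph. Gnai1 encodes an alpha subunit of the inhibitory G protein, which lowers cyclic AMP. It measured 3.42 and 4.25 in esophagus before transplantation, below all others (5.22 to 8.91), and 7.54 and 7.57 after it, within the range of the others (3.95 to 7.65), an interaction of 3.92 ± 0.23 (SE). Cxcl2, a chemokine that attracts neutrophils, went from 5.84 and 5.64, below all others, to 7.82 and 7.71, within their range. Vcan, the matrix proteoglycan versican, measured 4.19 and 4.35 before and 5.22 and 5.17 after, while it fell by 3.45 in footpad, 1.91 in vagina and 1.53 in trachea. Gnai1 and Cxcl2 thus went from below the other tissues into their range. The difference of Gnai1 after transplantation, 1.23, rested on the low level in trachea (3.99), and was 0.45 and not called without trachea.

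The 4 largest negative interactions were those of Sim2, Krt15, Crip1 and Mgst1. Sim2, a transcription factor of the bHLH-PAS family, measured 6.97 and 6.92 in esophagus before transplantation and 3.75 to 4.57 in the other arrays. Afterwards it measured 3.99 and 4.15, inside the range of the others (3.94 to 4.47), an interaction of -2.99 ± 0.15 (SE). Of the 20 arrays, the 2 of esophagus before transplantation were the ones with a raised value. Krt15, a keratin of basal cells, went from 10.01 and 9.87 to 6.59 and 6.61, fell as far in vagina (-3.57) and rose by 3.40 in footpad. Crip1, a small LIM domain protein, went from 7.64 and 7.46 to 5.19 and 5.26, the level of oral mucosa, vagina and footpad, while trachea measured 10.82. Its difference of -1.34 after transplantation rested on trachea, and without trachea it was 0.08 and not called. Mgst1, the microsomal glutathione transferase, measured 5.55 and 5.81 after transplantation against 5.76, 8.10 and 9.20, changed by -0.99 in esophagus, which was not called, and rose by 3.16 in oral mucosa and 1.81 in footpad. Gata3 (-2.38) and Jmjd8 (-2.47) also had negative interactions. Gata3 fell by 1.37 in esophagus and rose by 1.48 in oral mucosa and 1.67 in footpad, and Jmjd8 fell by 2.90 in esophagus and changed by -0.23 to -0.57 in the other tissues.

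**Figure D5:**
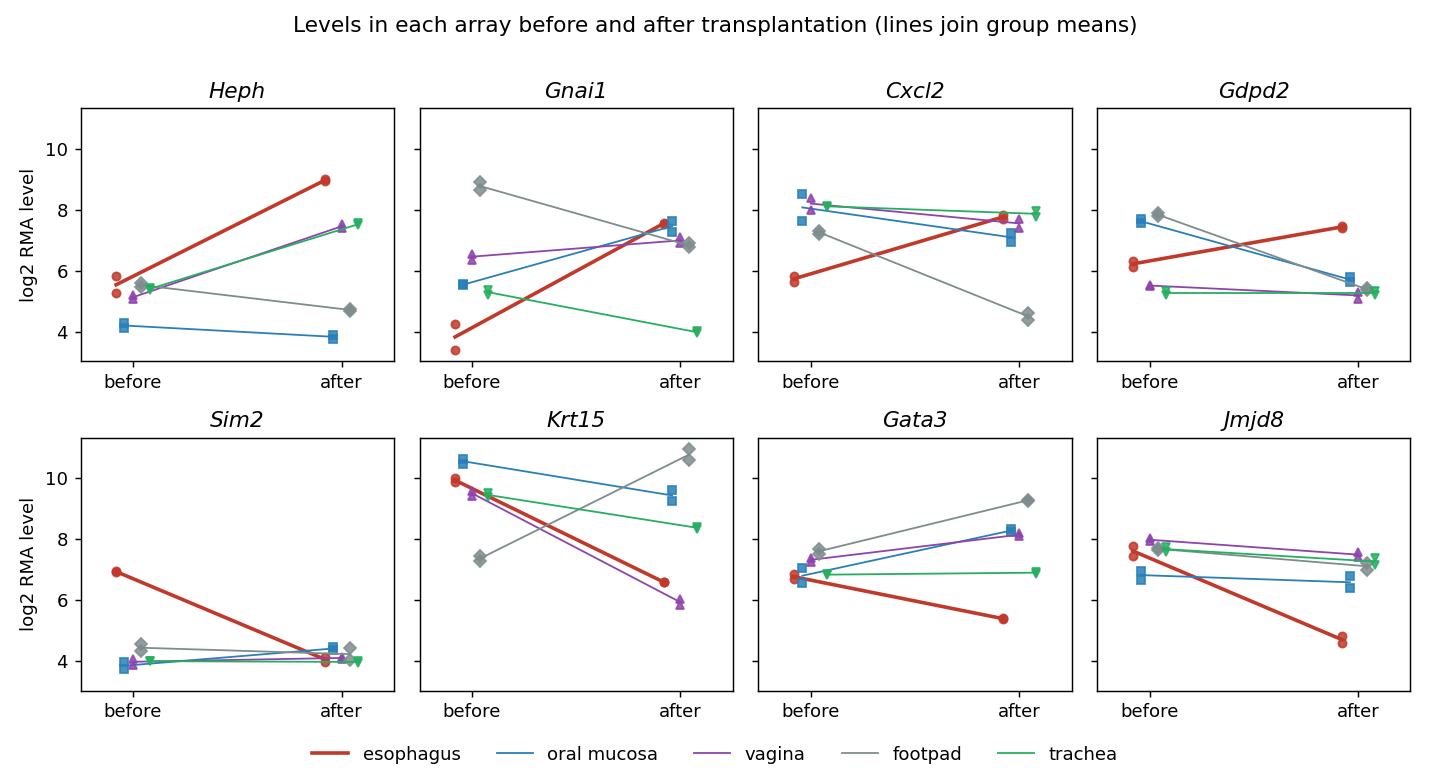
Log2 RMA levels (y axis) of 8 genes in each array before and after transplantation, with lines between group means, esophagus in red and the other tissues in the colours of the key. Heph, Gnai1, Cxcl2 and Gdpd2 rise in esophagus and Sim2, Krt15, Gata3 and Jmjd8 fall in it, and Sim2 ends at the level of the other tissues.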

How the data were processed

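RNA of 20 cultures, 2 for each of 5 tissues before and after transplantation, was measured on the Affymetrix Rat Gene ST 1.0 array. The deposited values are log2 levels, which the authors made with RMA in Affymetrix Expression Console. For software versions and the build behind the array's annotation, nothing is stated (not given in the sources used here). Levels run from 1.52 to 14.0 for 29215 probe sets. By GEO's platform annotation 15310 probe sets have 1 symbol, 323 have several and 13582 are unnamed here. Of the named ones, 15279 gene IDs were found in a RefSeq table, and no symbol changed. For the 527 symbols with more than 1 probe set, that with the highest mean over all arrays was kept.

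A linear model with 1 mean per group was fitted to all 20 arrays with limma 3.58.1 (statmod 1.5.0, R 4.3.3), with 10 residual and 3.64 prior degrees of freedom, and p-values were adjusted over all probe sets by the Benjamini-Hochberg method. Calls needed an adjusted p under 0.05 and a fold over 2. The rate of false calls in the measured arrays was not tested.

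Genes were named by a rule. They were the 15 highest and 15 lowest called symbols with both esophagus arrays outside the range of the 8 others (leaving out symbols that start with LOC or RGD), Sprr3 and Heph, up to 4 called members a list with members that define it, and the 4 largest interactions in each direction. The genes compared and the lists were chosen with earlier results of these data known. Alternatives were other error models, a replicate block, centring of arrays, a filter on dim probe sets, other fold thresholds, the mean of a symbol's probe sets, and leaving out arrays or tissues. Motifs were searched in RefSeq promoters (GRCr8) with Python 3.11.15, pandas 2.3.3 and numpy 2.4.6, and figures drawn with matplotlib 3.10.9. The number of arrays limits the precision.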

Additional observations from a re-analysis of the deposited data

Results flagged for a closer look

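Of the 37 genes named by rule, 26 had a called interaction by limma, against 1.07% (higher) and 0.91% (lower) of all symbols. This count is a description, since 8 of the 37 were chosen for the size of the interaction and the others for the difference after transplantation, which is a part of it. The values here are the log2 change in esophagus minus the mean change elsewhere.

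It was positive for 12 genes. The largest values were those of Gnai1 (3.92), Cxcl2 (3.18), Vcan (2.65), Heph (2.61) and Snurf (2.58). Pdgfc (2.51), Fcer2 (2.38), Gdpd2 (2.38), Exo5 (2.21) and Ptgs1 (2.13) followed, and the glutamine carriers Slc38a3 (1.37) and Slc38a1 (1.30) were the smallest of the 12.

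For 14 genes the value was negative. Sim2 (-2.99), Krt15 (-2.75), Crip1 (-2.65), Mgst1 (-2.54), Jmjd8 (-2.47) and Gata3 (-2.38) had the largest ones. Smaller ones were those of Tcp11l2 (-1.85), Prtfdc1 (-1.66), Oas1k (-1.62), Gda (-1.61), Sp140 (-1.59), Sp100 (-1.56), Ndrg2 (-1.40) and Il18 (-1.08).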

How the results depend on the processing

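With the spread between tissues as error, limma called 0 symbols higher and 0 lower, with 202 (1.39%) under an unadjusted p of 0.05. Of the 37 named genes, the 35 that had a call after transplantation all lost it, and Vcan and Sim2 had none to lose. The count of 101 higher and 155 lower went to 263 and 351 against tissues with code RC4, to 300 and 358 against those with numeral III, to 67 higher without footpad, and to 198 and 261 without vagina. Without a fold threshold it was 1991 and 1718, and with a fold over 4 it was 12 and 17. Without footpad, 61 of the 101 and 85 of the 155 symbols remained called, and the negative interactions went from 132 to 43. Leaving out 1 array at a time gave 95 to 108 higher and 153 to 163 lower, and 151 to 163 positive and 121 to 146 negative interactions. Crip1 changed sign, to 0.09 against tissues with numeral III and 0.08 without trachea. Gnai1 was not called in either setting (0.40 and 0.45), nor Oas1k (-0.78) and Cxcl2 (0.26) without footpad, and Cxcl2 missed the threshold in 5 of the fits without 1 array (0.95 to 0.98). The causes were not tested, other than by the left-out tissues themselves. Centring arrays on their medians gave 118 higher and 139 lower, and the other settings stayed within 1.5 times.

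Replicate numbers did not pair the samples. Deviations of equally numbered arrays correlated at -0.08 to 0.06, and 0 of 10 pairs exceeded 0.1. With the replicate number as a block the counts stayed at 101 and 155.

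Of the symbols called higher, 7 had a mean among the dimmest 40% (under 4.77) in the other tissues, and 31 of those called lower had one in esophagus.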

Other observations

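Other gene lists had members in both directions. Among 16 markers of simple epithelia, Tspan8, a tetraspanin of gut and airway epithelium, measured 9.08 and 9.22 in esophagus, 11.82 on average in trachea and 4.09 to 6.14 in the means of oral mucosa, footpad and vagina, a difference of 2.33 ± 0.15 (SE). Krt20 was the other member called higher (1.57 ± 0.11), at 7.17 and 7.22 against at most 6.61. Krt19 (-1.47) and Cldn4 (-1.15) were called lower. For Cldn4, a tight junction claudin, esophagus lay below all other arrays (10.28 and 10.31 against 10.78 to 12.36), and for Krt19 it lay near oral mucosa and vagina, with trachea (8.99) and footpad (7.26) far higher.

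In the list of bone morphogenetic protein and transforming growth factor signaling, 3 of 37 members were called higher and 3 lower, with a median of -0.07. The receptor Bmpr1b measured 6.41 and 6.22 in esophagus against 4.33 to 5.62 elsewhere (1.5 ± 0.15, SE). The activin antagonist Fst measured 10.38 and 10.47, near vagina at 10.95 and above the other tissues at 8.22 to 8.47. Tgfbi, a matrix protein induced by transforming growth factor beta, measured 6.75 and 6.70 against 7.44 to 10.48 (-1.80 ± 0.10), and the ligand gene Tgfb3 measured 4.60 and 4.81 against 5.13 to 8.04 (-1.74 ± 0.14). Bmpr1b thus lay above all 8 other arrays, and Tgfbi and Tgfb3 below all of them. Of 22 matrix proteases and inhibitors, 2 were called higher and 3 lower. The inhibitor Timp1 differed by 1.39, with footpad at 4.79 and trachea level with esophagus at 9.07, and the collagenase Mmp13 differed by -1.41.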
